A study of Mus musculus with 5 samples.

Results

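The enzymes that cut and cross-link the matrix of the uterine wall were examined in mice with a conditional knockout (cKO) of Dicer, the ribonuclease that makes mature microRNAs. The genes were those of the matrix metalloproteinases (MMPs), the ADAMTS proteases, the tissue inhibitors of metalloproteinases (TIMPs) and the lysyl oxidases. They were chosen by name, as every array target called Mmp or Adamts followed by a number, Timp1 to Timp4, Lox and Loxl1 to Loxl4, a rule that uses no measured value, although the gene families were picked with earlier results of these data known. The rule found 81 probes for 49 genes among the 45281 probes of the array, namely 23 MMP, 17 ADAMTS, 4 TIMP and 5 lysyl oxidase genes, and each gene was represented by its brightest probe over the 5 arrays. Of the 49 genes, 35 passed the detection filter and entered the test, together with all other detected genes, 15733 in all.

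All mice were 15 days old and of a mixed hybrid background, C57BL/6J;129S5/Brd. The Dicer cKO mice carried a Cre knockout of Dicer, with Cre expressed from the progesterone receptor locus, so that deletion is limited to cells in which that locus is or has been active. The controls are labelled wild type, with no word on whether Cre or a floxed Dicer allele was present in them. Cre at the progesterone receptor locus and loss of Dicer therefore cannot be told apart here. Each sample was total RNA of a pool of uteri read on 1 bead array, with 3 control pools (numbered 7, 9 and 11) and 2 Dicer cKO pools (10 and 12). Nothing in the labels says how many uteri a pool held, so p-values here reflect only how far these pools differed from one another, which may be technical. Levels are log2 intensities and are always listed in the order of control pools 7, 9 and 11, followed by Dicer cKO pools 10 and 12.

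The share of probes detected ran from 47.0% to 49.5% over the arrays, and the number of arrays limits the precision. Dicer1 differed by -0.43 ± 0.09 log2 units (SE; limma adjusted p = 0.0224), a call lost in 7 of 14 alternative settings. Pgr, the progesterone receptor gene whose locus drives Cre, differed by -0.77 ± 0.14 (limma adjusted p = 0.0090), which did not pass without Dicer cKO pool 10 (0.113). The defining markers of uterine tissue were present: 8 of 9 epithelial, 9 of 9 endometrial stromal and 8 of 8 smooth muscle markers were measured. Of these, 4 epithelial and 4 stromal markers were lower in the Dicer cKO pools, none was higher, and 0 smooth muscle markers were called. Of 8 macrophage markers 3 were higher and 1 lower, and of 4 adipocyte markers measured 2 were lower. Over all genes tested, 2.78% were called higher and 3.96% lower. The summed linear level of the epithelial markers was 9286 to 12020 in the controls against 6783 and 6787 in the Dicer cKO pools. Of these 8 markers, 2 had differences above 0 and 6 below. Their median was -0.32, and Cldn3 lay farthest from 0, at -1.48. The summed linear level of the macrophage markers was 3017 to 3398 in the controls against 3017 and 3760. The macrophage sum includes Cd14, which fell by 1.81 and was the brightest of these markers in every control pool. The other 7 had differences above 0, and the median over all 8 was 0.37. By limma none of 7 endothelial, 5 mast cell, 5 mesothelial and 2 neutrophil markers was called, with 1 endothelial marker and no other of these at an unadjusted p under 0.05, and 1 of 3 oviduct and ciliated cell markers was lower. RNA of whole organs was measured, so fewer cells of a type and less RNA per cell cannot be told apart, and the part of these markers in the results on matrix genes was not tested.

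MMPs and ADAMTS proteases are zinc-dependent enzymes, made as inactive precursors and activated by removal of a propeptide, often by plasmin, furin-like convertases or other MMPs. TIMPs block the active site of MMPs, and TIMP3 also blocks several ADAMTS enzymes. Lysyl oxidases act in the other direction, oxidising lysines of collagen and elastin so that fibres become cross-linked. In the uterus these enzymes remodel the stroma during growth, the oestrous cycle and implantation.

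Few of these genes differed between the groups. Of the 35 tested, Mmp10 and Mmp11 rose in the Dicer cKO uteri, Lox and Mmp2 fell, and 31 did not pass a limma test at an adjusted p under 0.05 over all 15733 genes. That is 11.4% of the tested members, against 6.74% of all genes tested (2.78% called higher and 3.96% called lower), so 4 called genes are not far from the background count. The median difference was -0.02 log2 units over the 35 genes and 0.01 over all genes, and the median size of a difference regardless of sign was 0.09 against 0.14. The groups did not overlap for 11 of the 35 genes (31.4%, against 37.6% of all genes). In 7 of these the Dicer cKO pools were the higher (19.9% of all genes) and in 4 the lower (17.6% of all genes). For 25 of the 35 genes the difference between groups was under 0.2 log2 units in size, and for 21 it was smaller than the gap between the 2 Dicer cKO pools.

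**Figure D1:**
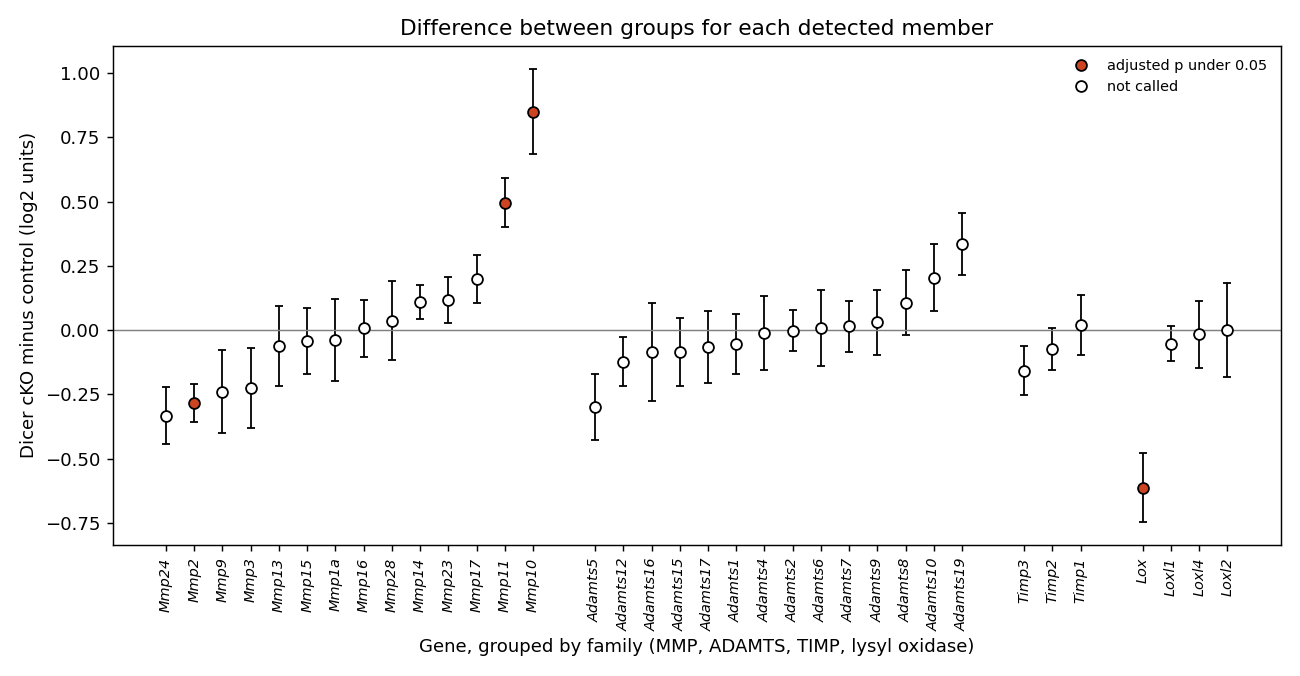
Difference between Dicer cKO (2 pools) and control (3 pools) in log2 units for the 35 detected genes, grouped by family and ordered within each; bars are the SE of the fit and filled points mark an adjusted p under 0.05. Mmp10 at 0.85 and Lox at -0.61 lie farthest from 0, and most other genes lie within 0.2 of it.

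The stretch around the transcription start is shown for Mmp10 and Mmp11, the members that rose, and for Mmp3, which lies in the same gene cluster as Mmp10 and was not called. Sequences run from 250 bases before to 50 bases after the RefSeq start (build GRCm38.p6), and 31 of the 49 genes had an entry, Lox and Mmp2 not among them. Capitals mark matches on either strand to 3 motifs, none of which contains another: TGANTCA, the site bound by AP-1 factors, the TATA box motif TATAAA, and the Sp1-binding GC box, searched as GGGCGG.
Mmp10, chr9:7502092-7502391, plus strand: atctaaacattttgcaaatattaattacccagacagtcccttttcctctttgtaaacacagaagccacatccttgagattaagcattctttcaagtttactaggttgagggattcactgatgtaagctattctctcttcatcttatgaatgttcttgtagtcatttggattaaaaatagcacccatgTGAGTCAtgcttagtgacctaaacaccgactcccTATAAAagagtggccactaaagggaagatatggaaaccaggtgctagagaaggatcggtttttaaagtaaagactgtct
Mmp3, chr9:7445572-7445871, plus strand: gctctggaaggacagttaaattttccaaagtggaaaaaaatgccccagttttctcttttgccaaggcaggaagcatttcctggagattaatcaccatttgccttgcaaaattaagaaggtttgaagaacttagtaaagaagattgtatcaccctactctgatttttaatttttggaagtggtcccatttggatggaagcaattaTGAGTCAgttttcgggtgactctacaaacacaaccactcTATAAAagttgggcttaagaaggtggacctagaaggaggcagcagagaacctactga
Mmp11, chr10:75932453-75932752, minus strand: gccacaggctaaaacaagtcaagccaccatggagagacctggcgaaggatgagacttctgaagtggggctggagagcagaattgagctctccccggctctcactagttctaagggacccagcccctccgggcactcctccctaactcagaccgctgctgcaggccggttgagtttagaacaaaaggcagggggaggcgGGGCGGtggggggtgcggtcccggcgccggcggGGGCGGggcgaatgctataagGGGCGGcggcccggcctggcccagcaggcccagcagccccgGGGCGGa

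Mmp10 and Mmp3 shared the order of an AP-1 motif followed by a TATA box motif, but not their distance from the start. The AP-1 match began 63 bases before the start in Mmp10 and 46 in Mmp3, and the TATAAA match 29 and 7. The Mmp11 window held neither of these motifs and 4 matches to the GC box. TGANTCA occurred in 7.81% of the 32851 windows of the RefSeq table, TATAAA in 13.6% and GGGCGG in 35.7%. Mmp10 belongs to a run of 10 MMP genes on chromosome 9, and 8 of those 10 had a window with TGANTCA and 9 one with TATAAA, against 0 and 2 of the 21 other members with an entry. GGGCGG showed the reverse, with 0 of the 10 and 17 of the 21. These matches are descriptions of sequence and show no binding.

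Mmp10, or stromelysin-2, cleaves proteoglycans, laminin and several collagens and activates other MMPs. Its signal was 5.50, 5.62 and 5.89 in the controls, against 6.70 and 6.34 in the Dicer cKO pools. Both Dicer cKO pools lay above all 3 control pools, and the gap between them was smaller than the difference between groups. The difference was 0.85 ± 0.17 (SE; limma adjusted p = 0.0149), a 1.80-fold increase. The probe was dim, with raw intensities of 80.9 to 85.1 in the controls and 113.8 to 125.4 in the Dicer cKO pools, and no second probe was present. Leaving out Dicer cKO pool 10 gave 0.67 (limma adjusted p = 0.188) and leaving out control pool 7 gave 0.76 (0.0534), neither of them called.

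The other detected genes of the chromosome 9 run were not called. In the order of the chromosome, Mmp13 differed by -0.06 ± 0.15, Mmp3 by -0.23 ± 0.16 and Mmp1a by -0.04 ± 0.16. Mmp13 and Mmp1a encode collagenases, and Mmp3 the stromelysin closest in kind to Mmp10. The 3 probes of Mmp3 gave -0.23, -0.24 and -0.28, all uncalled. For Mmp3 the 95% confidence interval ran from -0.58 to 0.13, and the difference between its value and that of Mmp10 was not tested. A dimmer probe of Mmp1a differed by 0.11 ± 0.16. Whether a probe of Mmp1a also reads its paralogue Mmp1b was not tested. The remaining 6 genes of the run, Mmp12, Mmp1b, Mmp8, Mmp27, Mmp20 and Mmp7, did not pass the detection filter.

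Mmp11, or stromelysin-3, is a stromal enzyme activated inside the cell by furin. It measured 8.33, 8.40 and 8.42 in the controls, against 8.88 and 8.89 in the Dicer cKO pools. The pools of each group were tightly grouped and the groups were well apart. Mmp11 rose by 0.50 ± 0.09 (SE; limma adjusted p = 0.0123), or 1.41-fold, and of the 4 called members it kept its call in the most alternatives, 13 of 14. It was not called without Dicer cKO pool 10, where the difference was still 0.50 (limma adjusted p = 0.0901).

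Mmp2, gelatinase A, degrades denatured collagen and basement membrane collagen and is typical of fibroblasts. Its values were 13.42, 13.42 and 13.43 in the controls, against 13.03 and 13.25 in the Dicer cKO pools. Both Dicer cKO pools were lower than the controls, which spanned a much narrower range. Mmp2 fell by 0.28 ± 0.07 (SE; limma adjusted p = 0.0481), a 1.22-fold difference that only just passed. The call was lost in 9 of 14 alternatives, among them every setting without 1 control pool (limma adjusted p from 0.0889 to 0.137) and the setting that left out Dicer cKO pool 10, at -0.18 with a limma adjusted p of 0.352. The summed linear level of the 9 stromal markers also ran lower. It was 42240 to 44190 in the controls, 35520 in Dicer cKO pool 10 and 39540 in pool 12. For both quantities pool 10 was the lower of the Dicer cKO pools, an order not particular to stroma. Of the 35 tested members, 20 were lower in pool 10 than in pool 12. The smooth muscle sum was 49030 in pool 10 and 50400 in pool 12, and the endothelial sum 7862 and 8754. The oviduct and ciliated cell sum went the other way, at 246.8 and 216.4. The part of the stromal markers in the difference of Mmp2 was not tested.

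Mmp9, gelatinase B, is made by leukocytes and several other cells. It read 7.73, 7.67 and 7.62 in the controls, against 7.14 and 7.72 in the Dicer cKO pools. Dicer cKO pool 12 lay among the controls and pool 10 below them, so the groups overlapped. The difference of -0.24 ± 0.16 did not pass (limma adjusted p = 0.451), and without Dicer cKO pool 10 it was 0.05.

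The membrane-type MMPs are anchored at the cell surface, and MMP14 among them activates the precursor of MMP2 in a complex with TIMP2. Mmp14 measured 12.27, 12.33 and 12.24 in the controls, against 12.35 and 12.43 in the Dicer cKO pools. The Dicer cKO pools lay just above the controls, and the difference of 0.11 ± 0.07 did not pass (limma adjusted p = 0.399; 95% confidence interval -0.04 to 0.26). Mmp24, which is best known from the nervous system, measured 8.30, 8.36 and 8.14 in the controls, against 7.91 and 7.95 in the Dicer cKO pools. Its groups did not overlap, and the difference of -0.33 ± 0.11 had an unadjusted p of 0.0127 but an adjusted p of 0.114 in limma. A second, far dimmer probe of Mmp24, detected on 2 arrays, differed by 0.17 ± 0.16. Mmp17 differed by 0.20 ± 0.09 with both Dicer cKO pools above the controls (limma adjusted p = 0.258), Mmp15 by -0.04 ± 0.13 and Mmp16 by 0.01 ± 0.11.

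Among the other MMPs, Mmp23, an MMP with an unusual cysteine-rich tail, read 10.71, 10.91 and 10.87 in the controls, against 11.02 and 10.87 in the Dicer cKO pools. Dicer cKO pool 12 lay within the controls, and the difference was 0.12 ± 0.09 (limma adjusted p = 0.513). Mmp28, or epilysin, differed by 0.04 ± 0.15. In all, 14 of 23 MMP genes were tested, with 2 called higher, 1 lower and 11 not called. That is 21.4% called, against 6.74% of all genes tested, and whether these shares differ was not tested. The median difference was -0.02, with a range from -0.33 to 0.85.

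**Figure D2:**
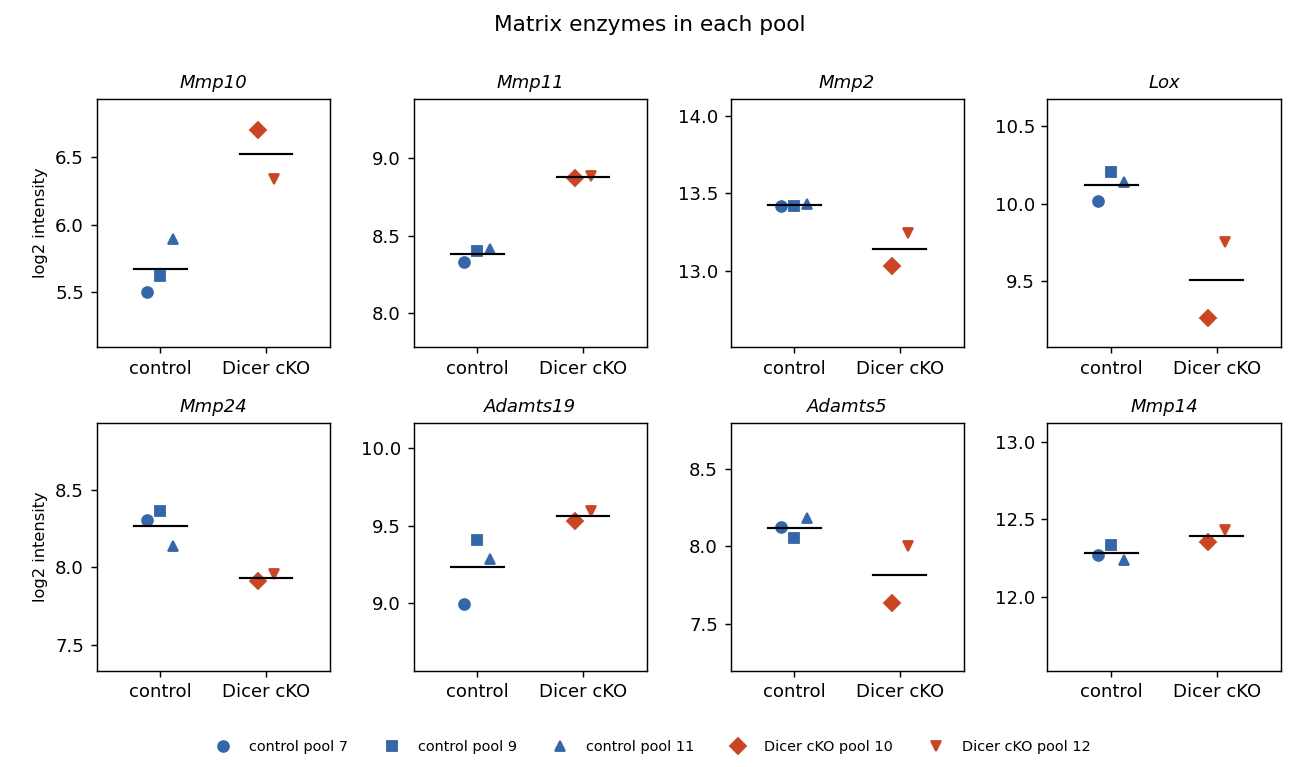
Log2 intensity of 8 matrix enzyme genes in each pool, with the mean of each group as a line; every panel has its own vertical scale, and levels are not comparable between genes. The upper row holds the 4 called genes, in which no Dicer cKO pool falls within the controls; in Lox and Mmp2, Dicer cKO pool 10 is the lower of the pair.

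None of 14 ADAMTS genes tested was called in limma, with a median difference of -0.01 and a range from -0.30 to 0.33. At an unadjusted p under 0.05, 1 was higher and 1 was lower, while 10.4% of all genes tested were higher and 10.4% lower by that criterion. The higher one was Adamts19, a family member without a well-established substrate, at 9.00, 9.41 and 9.29 in the controls, against 9.53 and 9.60 in the Dicer cKO pools. The Dicer cKO pools lay above the controls, with control pool 7 well below the other controls, and the difference was 0.33 ± 0.12 (limma adjusted p = 0.150). The lower one was Adamts5, which cleaves the proteoglycans aggrecan and versican. It measured 8.12, 8.05 and 8.18 in the controls, against 7.63 and 8.004 in the Dicer cKO pools. Dicer cKO pool 12 was only slightly under the lowest control, and the difference of -0.30 ± 0.13 did not pass (limma adjusted p = 0.222).

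No other proteoglycan-cleaving ADAMTS gene passed at an unadjusted p under 0.05. Adamts9 read 9.92, 10.21 and 10.02 in the controls, against 9.89 and 10.27 in the Dicer cKO pools, so that the Dicer cKO pools lay on either side of the controls. Its difference was 0.03 ± 0.13 (95% confidence interval -0.25 to 0.31). Adamts1, a gene linked to ovulation, differed by -0.05 ± 0.12, Adamts4 by -0.01 ± 0.14, Adamts15 by -0.09 ± 0.13 and Adamts8 by 0.11 ± 0.13. Of these 4, the groups did not overlap for Adamts8 alone, with the Dicer cKO pools above.

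Adamts2 encodes the enzyme that removes the amino-terminal propeptide of fibrillar procollagens. Its brightest probe read 10.96, 10.88 and 11.07 in the controls, against 10.97 in both Dicer cKO pools, a difference of -0.00 ± 0.08 (95% confidence interval -0.18 to 0.18). Its 2 dimmer probes read higher in the Dicer cKO pools than in the controls, by 0.19 ± 0.09 and 0.22 ± 0.11, without passing (limma adjusted p = 0.270 and 0.293), and the difference between the probes was not tested. Adamts12, which cleaves cartilage oligomeric matrix protein, measured 9.99, 10.08 and 10.20 in the controls, against 9.88 and 10.06 in the Dicer cKO pools. The groups overlapped, at -0.12 ± 0.10, and its relative Adamts7 differed by 0.01 ± 0.10. Adamts10, an enzyme associated with fibrillin, differed by 0.20 ± 0.13 with both Dicer cKO pools above the controls (limma adjusted p = 0.428), and Adamts6 differed by 0.01 ± 0.15. Adamts16 and Adamts17 differed by -0.09 ± 0.19 and -0.06 ± 0.14.

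No TIMP was called in limma, with none of the 3 tested at an unadjusted p under 0.05, and the groups of each overlapped. Timp1, which can be induced by cytokines and growth factors, measured 8.91, 8.89 and 8.98 in the controls, against 9.13 and 8.77 in the Dicer cKO pools. The latter lay on either side of the controls, and the difference was 0.02 ± 0.12 (limma adjusted p = 0.950; 95% confidence interval -0.24 to 0.28). A second probe of Timp1 differed by -0.14 ± 0.15. The sign of the first probe's difference turned under median scaling, at -0.01, and without Dicer cKO pool 10, at -0.16.

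Timp2, the inhibitor that also takes part in MMP2 activation, read 12.21, 12.20 and 12.33 in the controls, against 12.06 and 12.28 in the Dicer cKO pools. The difference was -0.07 ± 0.08 (95% confidence interval -0.26 to 0.11). Timp3, which binds to the matrix itself, measured 12.09, 11.93 and 12.11 in the controls, against 11.75 and 12.03 in the Dicer cKO pools. Pool 10 was below all controls and pool 12 within them, with a difference of -0.16 ± 0.10 (limma adjusted p = 0.403; 95% confidence interval -0.37 to 0.06). A dimmer probe of Timp3 differed by -0.12 ± 0.16. These intervals bound the change of each inhibitor but do not show that it was the same in both groups. Timp4 was not detected on any array.

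Of the lysyl oxidases, Lox itself was lower in the Dicer cKO uteri. Its values were 10.02, 10.20 and 10.14 in the controls, against 9.26 and 9.75 in the Dicer cKO pools. Both Dicer cKO pools lay below every control, with pool 10 much lower than pool 12. Lox fell by 0.61 ± 0.13 (SE; limma adjusted p = 0.0248), a 1.53-fold difference. Without Dicer cKO pool 10 the difference was -0.36 (limma adjusted p = 0.190), and without pool 12 it was -0.86 (limma adjusted p = 0.0048). The call was also lost without control pool 9 (limma adjusted p = 0.0777), without control pool 11 (0.0608) and without the intensity trend (0.0720). The stromal marker levels given for Mmp2 had the same order between the Dicer cKO pools, an order that, as stated there, was not particular to stroma. The part of the stromal markers in the difference of Lox was not tested.

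The lysyl oxidase-like genes did not pass. Loxl1, needed for elastic fibre renewal and for support of the pelvic organs, measured 12.23, 12.27 and 12.36 in the controls, against 12.24 and 12.23 in the Dicer cKO pools. The Dicer cKO values lay at the low end of the controls, with a difference of -0.05 ± 0.07 (limma adjusted p = 0.728). Its 95% confidence interval, -0.21 to 0.10, did not reach the value measured for Lox, though the difference between the genes was not tested. Loxl2, an enzyme active on basement membrane collagen, read 6.07, 6.64 and 6.65 in the controls, against 6.51 and 6.40 in the Dicer cKO pools. Control pool 7 stood below the rest, and the group means were both 6.46 (SE of the difference 0.18; 95% confidence interval -0.41 to 0.41). Loxl4 measured 6.07, 5.93 and 5.91 in the controls, against 5.97 and 5.93 in the Dicer cKO pools, a difference of -0.02 ± 0.13.

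**Figure D3:**
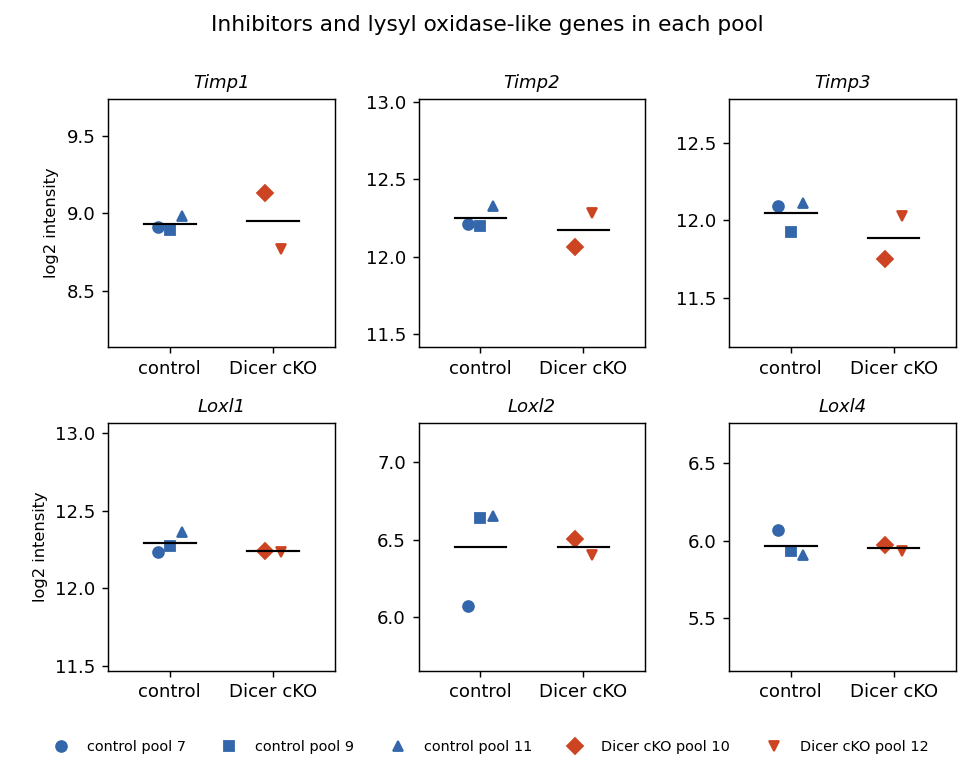
Log2 intensity of the 3 detected TIMP genes and 3 detected lysyl oxidase-like genes in each pool, with the mean of each group as a line and a scale of its own in each panel. The groups overlap in all 6 panels; in Timp2 and Timp3 pool 10 lies below every control and pool 12 within them, and in Timp1 the Dicer cKO pools stand 0.36 apart, on either side of the controls.

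Of the 49 genes, 14 did not pass the filter of detection on at least 2 arrays: 9 MMP, 3 ADAMTS, 1 TIMP and 1 lysyl oxidase gene. Of these, 12 were not detected on any array by the probe used, among them the macrophage elastase gene Mmp12, the matrilysin gene Mmp7, the neutrophil collagenase gene Mmp8 and Adamts13, the protease of von Willebrand factor. Loxl3 and Mmp20, the latter an enzyme of tooth enamel, were detected on the array of Dicer cKO pool 12 alone, so neither was tested. Of the tested genes, 34 were detected on all 5 arrays and Adamts17 on 3.

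Genes that activate or accompany these enzymes were read from the same fit. Among 15 measured genes of the plasminogen system, of convertases and of other regulators, 3 rose and 1 fell, where 2.78% of all genes tested were called higher and 3.96% lower. The median difference was 0.15 against 0.01 over all genes. Plau, the urokinase-type plasminogen activator, measured 5.98, 6.22 and 6.32 in the controls, against 7.26 and 6.99 in the Dicer cKO pools. It rose by 0.95 ± 0.15 (limma adjusted p = 0.0050), while Plat, the tissue-type activator, fell by 0.54 ± 0.10 (0.0083). Plat measured 11.44, 11.39 and 11.48 in the control pools and 10.74 and 11.05 in the Dicer cKO pools, again with pool 10 the lower. Pcsk6, a furin-like convertase, rose by 0.76 ± 0.10 (limma adjusted p = 0.0018), from 8.95, 8.71 and 8.80 to 9.58 and 9.58. Serpine2, an inhibitor of plasminogen activators and thrombin, rose by 0.37 ± 0.09 (limma adjusted p = 0.0354), a call lost in 7 of 14 alternatives. Without Dicer cKO pool 10, Plau and Plat were no longer called, at 0.82 and -0.39 (limma adjusted p = 0.0794 and 0.0767), while Pcsk6 was called in all 14.

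The membrane-bound ADAM proteases, which shed proteins from the cell surface, had differences above 0 for all 9 genes measured, with a median of 0.14, while 8343 of all 15733 genes tested had one above 0. In 5 of the 9 the difference was smaller than its SE, and 1 gene, Adam19, was called, where 6.74% of all genes were. Adam19 rose by 0.52 ± 0.10 (limma adjusted p = 0.0156), from 9.43, 9.39 and 9.65 in the controls to 9.94 and 10.08 in the Dicer cKO pools. Its call was lost in 5 of 14 alternatives, including those without either Dicer cKO pool (limma adjusted p = 0.0694 and 0.0816) and without control pool 7 or 9 (0.0541 and 0.0608). Of 6 ADAMTS-like genes, whose products lack a protease domain, Papln (papilin) rose by 0.72 ± 0.13 (limma adjusted p = 0.0099), from 6.45, 6.58 and 6.70 to 7.24 and 7.37. The call was lost without pool 10 and without pool 12 (0.0635 and 0.0567).

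Of 4 measured astacin proteases and procollagen enhancers, Pcolce2, an enhancer of procollagen C-proteinase, fell and 3 were not called. It measured 7.66, 7.89 and 7.89 in the controls, against 5.70 and 6.20 in the Dicer cKO pools. Both Dicer cKO pools lay far below the controls, at -1.86 ± 0.16 (limma adjusted p = 1.75e-04), and the call was kept in all 14 alternatives. Of 7 measured proteoglycans and other ADAMTS substrates, Vwf, the substrate of Adamts13, fell by 0.59 ± 0.13 (limma adjusted p = 0.0301). That call was lost in 5 of 14 alternatives, among them those without control pool 7 or 9 (limma adjusted p = 0.0962 and 0.106) and without Dicer cKO pool 10 (0.266).

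Of 18 listed elastic fibre genes and partners of lysyl oxidase, 14 were measured and 0 were called in limma, with a median difference of -0.02. Fbln5, Efemp1, Ltbp2 and Postn were not measured here. Of 9 genes of collagen-modifying enzymes and their partners, the non-enzymes Serpinh1 and Crtap among them, 0 were called, with a median of 0.13. The list of cathepsins and related proteases, 13 genes with the cathepsin inhibitor gene Cst3 among them, also had 0 called, with a median of -0.04. At an unadjusted limma p under 0.05, 3 of the 14 elastic fibre genes were lower and none was higher. In the cathepsin list 3 of the 13 genes were lower, the inhibitor gene Cst3 among them, and none was higher. By the same criterion 2 of the 9 genes of the collagen-modifying list were higher and none was lower. Over all genes tested, 10.4% were higher and 10.4% lower. Whether the shares in these lists differ from those over all genes was not tested.

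**Figure D4:**
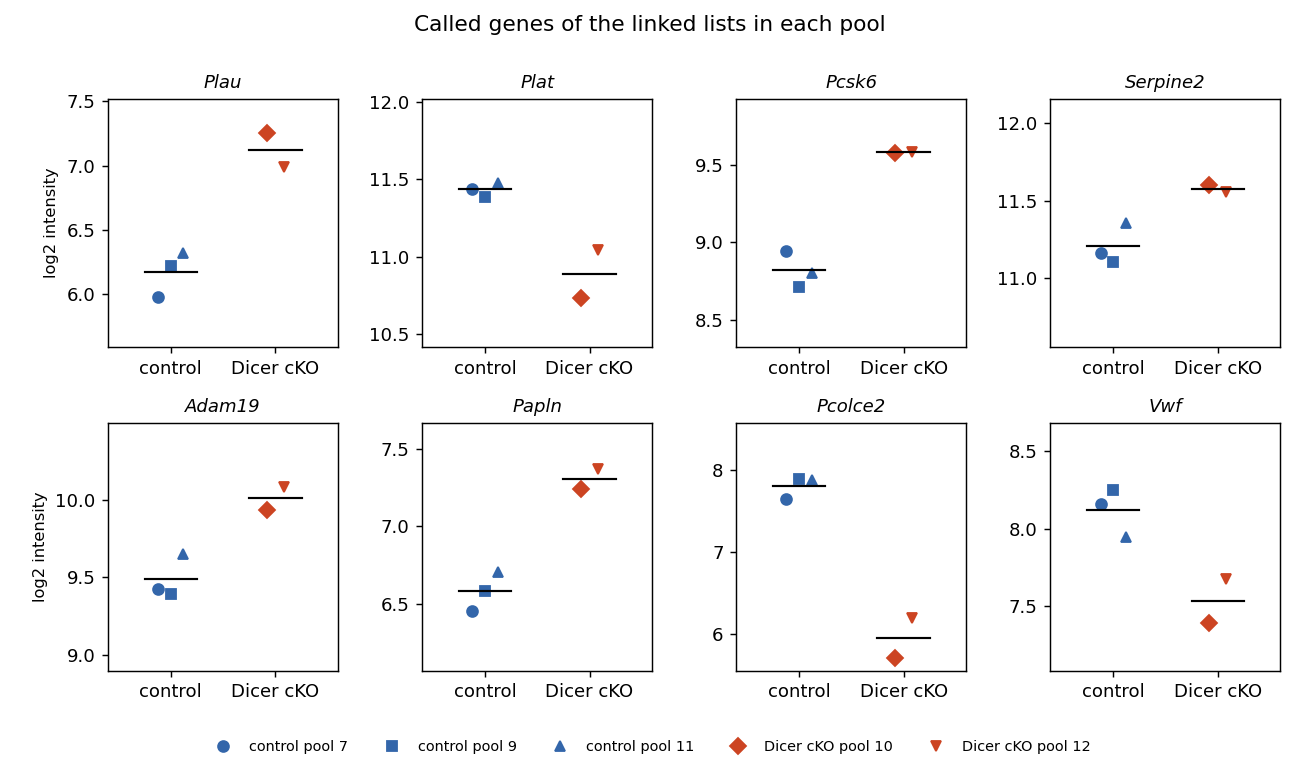
Log2 intensity in each pool of the 8 called genes of the linked lists, with group means as lines and a scale of its own in each panel. Plau, Pcsk6, Serpine2, Adam19 and Papln are higher in both Dicer cKO pools than in any control pool, and Plat, Pcolce2 and Vwf are lower.

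The bead-to-bead standard error of a probe's log2 signal, averaged over the 5 arrays, was between 0.04 and 0.11 for the 35 genes, with a median of 0.06. The median SD between the control pools was 0.10, although for some genes, Mmp2 (0.008) and Mmp11 (0.044) among them, the control pools lay closer together than the bead error of the probe (0.060 and 0.051). The standard error of the difference between groups ran from 0.07 to 0.19. Of the 35 genes, 9 had more than 1 probe that passed the filter, and none of the 4 called genes was among them, since each was read by 1 probe.

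The calls depended on single pools. Without Dicer cKO pool 10, Mmp10, Mmp11, Mmp2 and Lox were all uncalled in limma with their signs kept, no other member was called, and 1.77% of all genes were. Without Dicer cKO pool 12 the same 4 genes were called. Without control pool 7, Lox and Mmp11 were called, and without control pool 9 or 11, Mmp10 and Mmp11. The plot of settings shows these values.

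**Figure D5:**
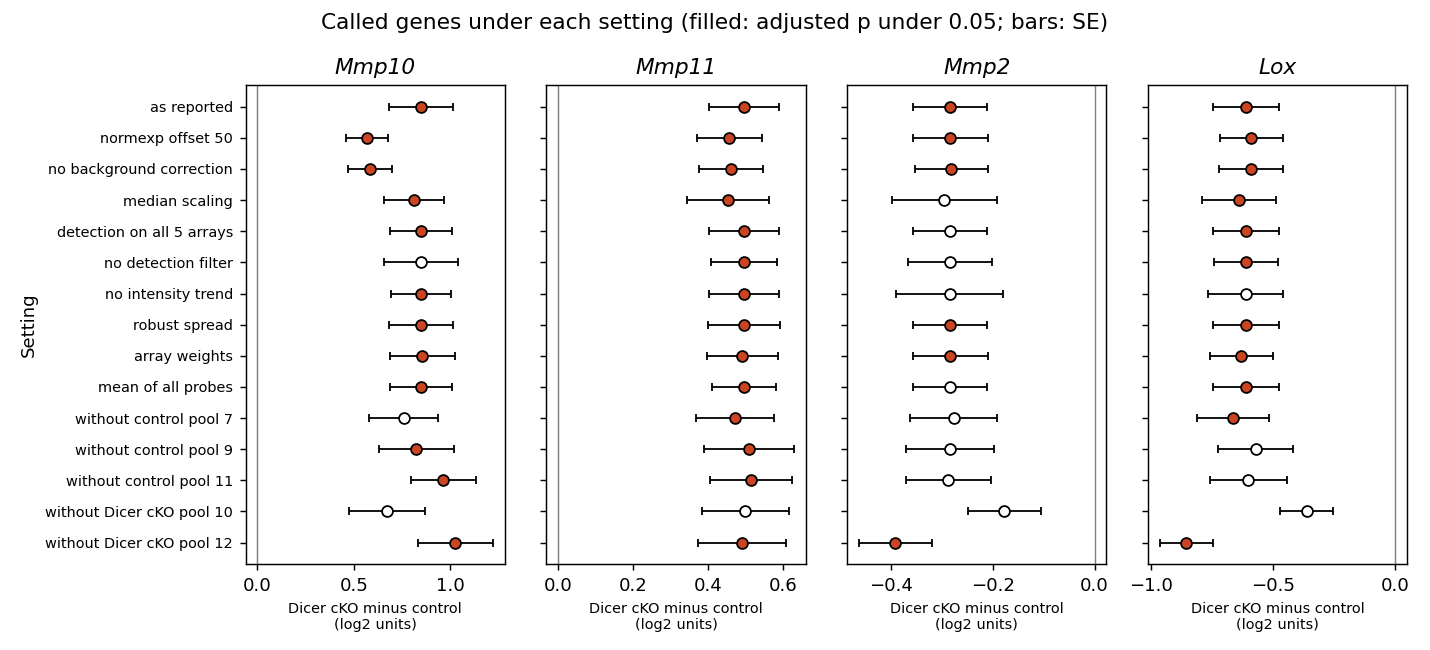
Difference between Dicer cKO and control in log2 units for the 4 called genes under the reported setting and 14 alternatives; bars are the SE of the fit and filled points mark an adjusted p under 0.05. No point lies on the other side of 0, and all 4 genes are uncalled without Dicer cKO pool 10.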

How the data were processed

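Uterine RNA of 5 pools was read on Illumina bead arrays; their chip is labelled as a human WG-6 v3 product, although the targets carry mouse gene names, which were used. Per the file headers, the authors deposited for each probe a mean bead intensity, the SD of bead intensities, a count of beads and a detection score; BeadStudio is named in the submitters' processing notes, with no version. The deposited intensity was on a linear scale, not background-subtracted and not normalized between arrays, as the values show. The detection score, deposited by the authors as a fraction from 0 to 1, rose with signal, and 1 minus it served as the detection p. A series-wide table was not used here because its row names match no probe column.

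With limma 3.58.1 in R 4.3.3, intensities were background-corrected and quantile-normalized with neqc (offset 16) and taken to log2. The offset compresses differences of dim genes. A probe was kept where 2 or more of the 5 arrays had a detection p under 0.05, with the brightest probe taken per gene, after names were updated with RefSeq (GRCm38.p6). Dicer cKO and control were compared with lmFit and eBayes with an intensity trend, 2-sided, Benjamini-Hochberg adjusted over 15733 genes, and called at 0.05; the test was checked on simulated data. Probes of member genes listed under other array names (Adamts9 and Adamts6, 1 each) lay outside the naming rule. Values in every pool were to be given for called members, TIMPs, lysyl oxidases, the brightest 3 MMP and ADAMTS genes and members with an unadjusted p under 0.05, and up to 4 called genes of each linked list were named; per-pool values of Mmp9 were added after its values were seen. Members and lists were chosen with earlier results of these data known. No slide or scan information was given, so no batch was tested. Confidence intervals come from the same fit.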

Additional observations from a re-analysis of the deposited data

How the results depend on the processing

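The comparison was repeated under 9 other processing choices and with each pool left out, where a lone Dicer cKO pool is assumed to vary like the others. The count of called members was 2 higher and 2 lower as reported. The higher count was 1 without a detection filter, with Mmp10 lost (limma adjusted p = 0.0513). The lower count was 1 under median scaling, with detection required on all 5 arrays and without a detection filter. It was also 1 with the mean of all probes of a gene that passed the filter, and 0 without the intensity trend. Why these settings changed the count was not tested. With a pool left out the higher count ran from 0 to 2 and the lower count from 0 to 2. Mmp10, Mmp11, Mmp2 and Lox kept their sign in all 14, with ranges of 0.57 to 1.03, 0.45 to 0.51, -0.39 to -0.18 and -0.86 to -0.36; the lowest value for Mmp10 came with an offset of 50. Linked genes Pcolce2 and Pcsk6 stayed called in all 14.

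Members near 0 changed sign, none of them called in limma. Under median scaling these were Adamts6 (-0.042), Adamts7 (-0.038), Mmp16 (-0.047) and Timp1 (-0.013). With array weights they were Adamts2 (0.014), Adamts4 (0.004), Adamts9 (-0.004), Mmp16 (-0.002) and Mmp28 (0). With the mean of all probes that passed the filter they were Adamts2 (0.136), Mmp1a (0.032) and Timp1 (-0.057). With a pool left out, the differences that turned sign ran over these ranges: Adamts1 -0.114 to 0.008, Adamts16 -0.249 to 0.086, Adamts2 -0.048 to 0.047, Adamts4 -0.140 to 0.114, Adamts6 -0.154 to 0.168, Adamts7 -0.027 to 0.055, Adamts9 -0.164 to 0.222, Loxl2 -0.190 to 0.101, Loxl4 -0.048 to 0.034, Mmp13 -0.210 to 0.082, Mmp15 -0.131 to 0.068, Mmp16 -0.049 to 0.047, Mmp1a -0.274 to 0.187, Mmp28 -0.091 to 0.162, Mmp9 -0.530 to 0.048, Timp1 -0.161 to 0.202, Timp2 -0.186 to 0.038. No paired analysis was run because the labels give no pairing of control and Dicer cKO pools. The signal of dim probes limits what can be seen: 14 members did not pass detection, and small differences of dim genes are compressed.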
